A study of Homo sapiens with 6 samples.

Results

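The comparison set U87MG cells carrying the hairpin sh52 against U87MG cells carrying the hairpin sh50, with 2 arrays each, taken from 6 arrays in all. Its members were the 33764 of 67528 transcript clusters (the array's unit for a gene locus) with a mean over all 6 arrays no lower than the median of every transcript cluster. U87MG is an established human glioblastoma cell line. The cells were infected with lentivirus that carried a short hairpin RNA, either sh52, sh50 or the control shGFP, and all were drug selected and then grown for 5 days before total RNA was taken. No other drug, allele or stimulus is named for any group. The series is titled for SAT1, and the last digits of a pair of library hairpin clones in its design text match sh52 and sh50, with no target stated there. The labels give each array a hairpin and a number, 1 or 2, and do not say whether numbers stand for separate infections or cultures. The p-values below thus reflect the spread among these samples alone, and that spread may be technical. Arrays are called below by their labels, such as sh52 1.

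A short hairpin RNA is cut in the cell by DICER1 to a small guide that AGO2 carries to transcripts with a matching stretch. A guide can also act like a microRNA, through a short seed at its 5′ end, on transcripts other than the one it was designed for, and so a pair of hairpins is commonly used against 1 gene. SAT1 encodes an acetyltransferase of spermidine and spermine, the slowest step in breaking polyamines down. The comparison asks which transcripts separate the hairpins from each other, whether or not they also differ from the control. The sequences of the hairpins themselves were not used here.

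SAT1, as a check of the labels, stood at 10.83 and 7.84 (log2) on the arrays labelled sh52 1 and sh52 2, at 9.36 and 8.35 on the sh50 arrays and at 9.45 and 8.96 on the shGFP arrays. The array labelled sh52 1 was the highest of the 6 and sh52 2 the lowest, so the groups overlapped. In each group number 1 lay above number 2. On the number 2 arrays both hairpins lay below shGFP. The level on sh52 1 lay above both shGFP arrays, so that array shows no SAT1 knockdown, if SAT1 is what sh52 targets. The difference was 0.48 ± 0.96 (SE; sh52 minus sh50, as in every difference below), with a 95% interval of -1.90 to 2.86 and a limma adjusted p of 0.953. Without the array labelled sh52 1 it was -1.01, and without sh50 2 it was -0.02. Within number 1 it was 1.47 and within number 2 it was -0.50. With the replicate number as a block the SE was 0.61 in place of 0.96. Every direction given below for sh52 draws on the array labelled sh52 1.

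The same array stood apart in other measures. The mean of 8 bacterial and phage spike-in controls was 9.83 and 9.24 on the sh52 arrays, 9.26 and 9.26 on the sh50 arrays and 9.25 and 8.88 on the shGFP arrays. All 8 were highest on the array labelled sh52 1. Over the 33764 transcripts sh52 2 correlated with the array labelled sh52 1 at 0.9798, and with the sh50 and shGFP arrays at 0.9836 to 0.9891, so its nearest arrays were those of other groups. The 2 sh52 arrays differed by 2-fold or more in 2061 transcripts (6.10%) and the sh50 arrays in 1484 (4.40%). Between hairpins, sh52 1 and sh50 1 differed in 2745 (8.13%) and sh52 2 and sh50 2 in 1087 (3.22%), so single arrays of different hairpins were farther apart than arrays of 1 hairpin in number 1 but not in number 2. Of the defining markers, FN1, VIM and CD44 were between 13.36 and 18.87 on every array, and the glial marker GFAP was dim, between 4.41 and 4.56. CHI3L1, of the same mesenchymal kind, varied more, from 7.03 to 11.14. PTPRC of blood cells, CDH1 of epithelia, PECAM1 of endothelium and RBFOX3 of neurons lay below the filter. The glial and neural stem markers S100B, OLIG2 and SOX2 lay below it too, while SOX9 and NES passed. EPCAM of epithelia passed, at a mean of 4.97, and so did SNAP25 of neurons and CD74 of the blood and immune list, both given below.

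**Figure D1:**
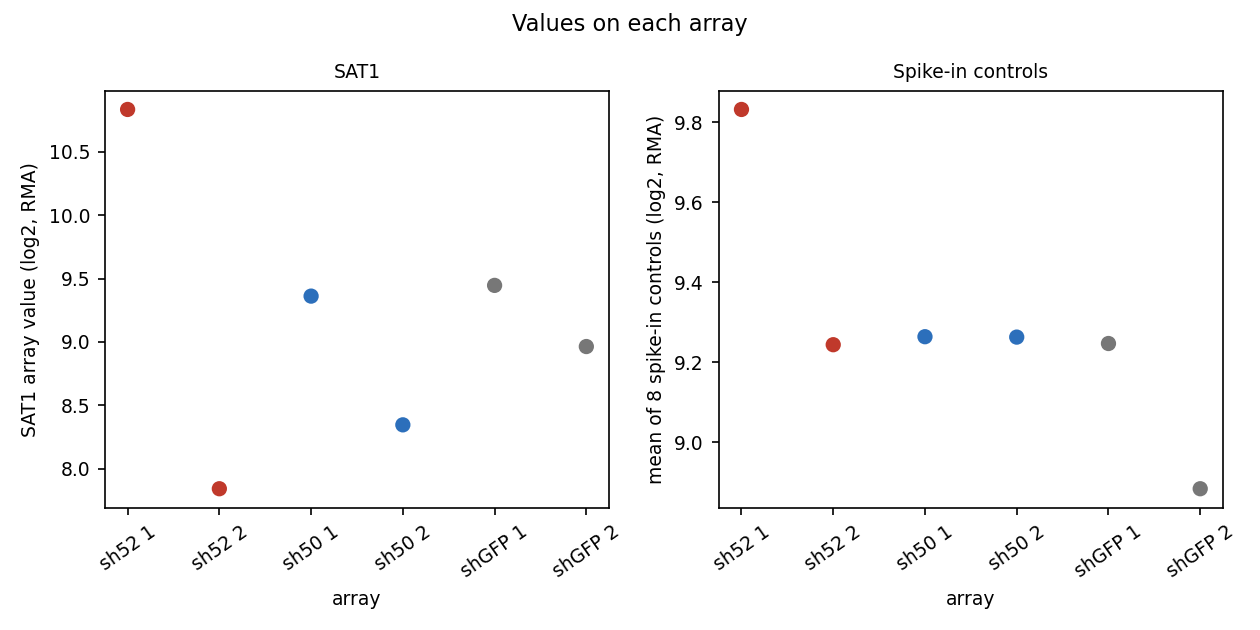
Values on each of the 6 arrays, from left to right sh52 (red), sh50 (blue) and shGFP (grey), in log2 units; the left panel is SAT1 and the right panel the mean of 8 spike-in controls. The array labelled sh52 1 is the highest in both, at 10.83 and 9.83.

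By limma no transcript passed an adjusted p of 0.05 (0 of 33764, 0%), and the smallest adjusted p was 0.493. At an unadjusted p under 0.05 there were 2138, of which 998 (2.96%) were higher with sh52 and 1140 (3.38%) lower with sh52. The values below therefore describe these 4 arrays. Separation was read as both arrays of one hairpin lying beyond both arrays of the other, with means at least 2-fold apart. On that measure 643 transcripts were separated, 362 of them higher with sh52 (1.07%) and 281 lower (0.832%). With each array centred on its median the split was 301 higher and 360 lower. Without the array labelled sh52 1 the count was 605, and 321 of the 643 were among them. It was 2140 without sh52 2, 1279 without sh50 1 and 1158 without sh50 2. With 1 array left in a group the arrays are less likely to overlap, so none of these counts compares directly with 643, and no other cause was tested. Among 14376 genes with a symbol of their own, each read by its brightest transcript cluster, 151 (1.05%) were separated with sh52 higher and 141 (0.981%) with sh52 lower. Protein-coding transcripts made up 288 of the 643 (2.30% of 12498 tested), other genes with 1 symbol 23 (0.863% of 2664) and transcripts without a single symbol 332 (1.79% of 18602).

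The 292 separated genes were also set against the shGFP arrays. With sh52 alone beyond both controls there were 50 lower genes, which had a median of -1.14 from shGFP with sh52 and 0.02 with sh50, and 46 higher ones, with medians of 1.39 and 0.07. With sh50 alone beyond both controls there were 39 lower genes, with medians of -0.00 for sh52 and -1.25 for sh50, and 37 higher ones, with medians of -0.20 and 1.09. In 58 genes the hairpins lay on opposite sides of both controls, 27 with sh52 higher and 31 with sh52 lower. In another 33 genes both hairpins lay on the same side of the controls, and 29 had another order. The sh52 and sh50 values share the shGFP arrays. In all, sh52 alone had both arrays beyond both controls in 96 separated genes, and sh50 alone in 76. The other hairpin was not thereby at the control level. Its mean differed from shGFP by -0.96 to 0.94 for sh50 in the 96 genes and by -0.70 to 0.93 for sh52 in the 76. Over all 33764 transcripts, without a fold minimum, sh52 alone lay beyond the controls in 4.94% higher and 4.41% lower, and sh50 alone in 4.28% higher and 4.65% lower, which are nearly equal shares.

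**Figure D2:**
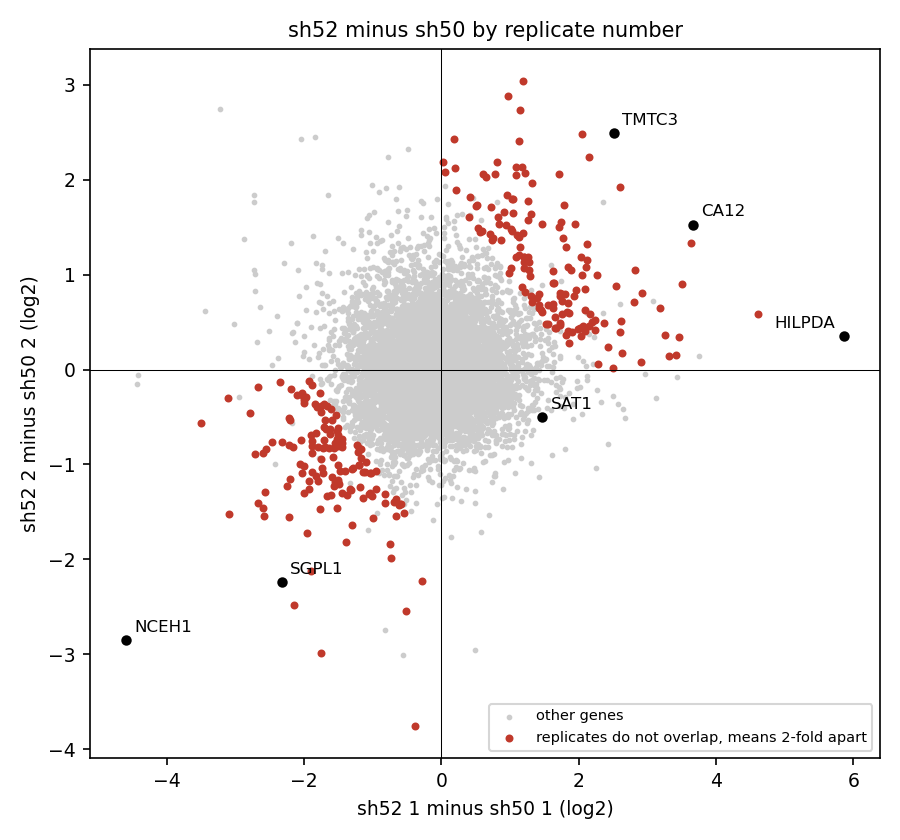
Each point is 1 of 14376 genes; the horizontal axis is sh52 1 minus sh50 1 and the vertical axis sh52 2 minus sh50 2, both in log2 units, with the 292 separated genes in red and 6 genes named in black. NCEH1 and SGPL1 lie low in both numbers, TMTC3 high in both, HILPDA high in number 1 alone at 5.86, and SAT1 changes sign between the numbers.

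The 14 separated protein-coding genes lower with sh52 that had the smallest p are given by role, those of membrane lipids first. SGPL1, the lyase that ends sphingolipid breakdown by cleaving sphingosine phosphate, stood at 6.48 and 6.77 on the sh52 arrays, 8.80 and 9.01 on the sh50 arrays and 8.87 and 9.09 on the shGFP arrays. The sh50 arrays were interleaved with the controls and both sh52 arrays lay far below. The difference was -2.28 ± 0.19 (SE), a 4.87-fold lower level if the base is 2, with an interval of -2.75 to -1.81 and a limma adjusted p of 0.493. NCEH1, a hydrolase of cholesterol esters, had the largest difference of the 28 protein-coding genes named. It stood at 6.95 and 7.01 with sh52, 11.54 and 9.86 with sh50 and 11.12 and 10.79 with shGFP. The sh52 arrays were nearly equal while the sh50 arrays lay on either side of the controls. Its difference was -3.72 ± 0.53 (SE; limma adjusted p = 0.493), and it ran from -2.88 without sh50 1 to -4.56 without sh50 2.

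TMEM30A, the partner that lets flippases reach the plasma membrane and move phospholipids across it, stood at 10.59 and 9.96 with sh52, 12.74 and 12.44 with sh50 and 12.19 and 12.17 with shGFP. Its difference was -2.31 ± 0.25 (SE). Both sh52 arrays were below the controls and both sh50 arrays slightly above them. RELCH, which takes part in cholesterol transfer from recycling endosomes, had a difference of -1.48 ± 0.16 (SE), with sh52 at 7.48 and 7.65 and sh50 at 8.99 and 9.11, against 8.32 and 8.35 for shGFP. VPS4B, the ATPase that takes apart ESCRT-III on endosomes, differed by -1.35 ± 0.15 (SE), at 9.15 and 9.30 with sh52, 10.53 and 10.62 with sh50 and 10.07 and 10.19 with shGFP. For RELCH and VPS4B the control arrays lay between the hairpins.

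Among genes of protein modification, COLGALT1, which adds galactose to collagen in the endoplasmic reticulum, stood at 10.51 and 10.74 with sh52, 12.46 and 12.46 with sh50 and 11.91 and 11.87 with shGFP. Its difference was -1.84 ± 0.16 (SE), of which -1.26 lay between sh52 and shGFP and 0.57 between sh50 and shGFP. POMK, a kinase that acts on the sugar chain of dystroglycan, lay below the controls with both hairpins. It stood at 6.73 and 7.03 with sh52, 8.73 and 8.33 with sh50 and 9.63 and 9.29 with shGFP, a difference of -1.65 ± 0.23 (SE) between the hairpins. NGRN, needed for assembly of the mitochondrial ribosome, stood at 8.56 and 9.15 with sh52, 11.15 and 10.60 with sh50 and 10.94 and 11.01 with shGFP, a difference of -2.02 ± 0.28 (SE).

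TNFRSF11B, the decoy receptor known as osteoprotegerin, had the opposite relation to the control. It stood at 6.51 and 7.15 with sh52, 8.72 and 8.70 with sh50 and 5.79 and 5.36 with shGFP. Both hairpins lay above shGFP, by 1.25 with sh52 and 3.14 with sh50, and the difference between them was -1.89 ± 0.27 (SE). CMTM4, a membrane protein that stabilises PD-L1, differed by -1.62 and IFT56, a subunit of the ciliary transport complex, by -1.36. STYX, a phosphatase relative without catalytic activity, differed by -1.27 and SECISBP2L, a relative of the selenoprotein translation factor, by -1.17. LRRC40 differed by -1.10. In CMTM4, IFT56, STYX and SECISBP2L the control arrays lay between the hairpins, and LRRC40 with sh50 was 0.01 above the control mean. All 14 genes had an adjusted p of 0.493, and leaving out any 1 of the 4 hairpin arrays moved none of their differences by over 1.5 times. The genes were picked for a small p on these same arrays, which favours close replicates, so this is no separate check.

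**Figure D3:**
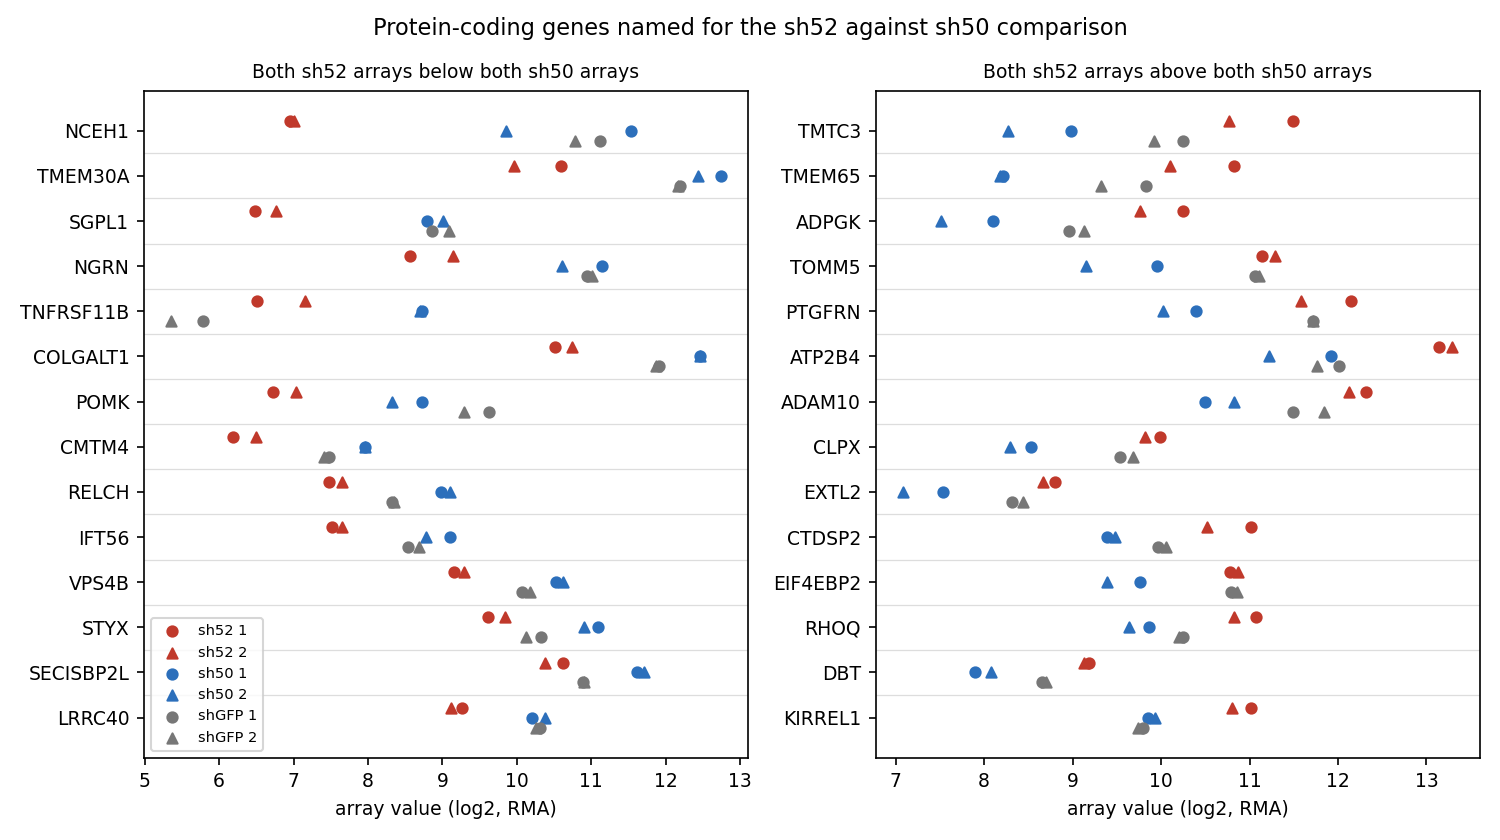
Array values in log2 units of the 14 protein-coding genes lower with sh52 (left) and the 14 higher with sh52 (right) that had the smallest p among separated genes; in each row sh52 (red) is above sh50 (blue) and shGFP (grey), circles are number 1 and triangles number 2. In NCEH1 and SGPL1 the sh50 and shGFP arrays lie together and sh52 apart, and in EIF4EBP2 and PTGFRN sh52 lies near shGFP and sh50 apart.

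The 14 genes with sh52 higher are also given by role, without a count of roles over all genes. CLPX, the unfoldase of the matrix protease ClpXP, stood at 9.99 and 9.82 with sh52, 8.53 and 8.29 with sh50 and 9.54 and 9.69 with shGFP. Its difference was 1.5 ± 0.17 (SE; interval 1.07 to 1.93), and most of it lay between sh50 and shGFP, at -1.21. DBT, the acyltransferase of branched-chain keto acid breakdown, stood at 9.18 and 9.13 with sh52, 7.90 and 8.08 with sh50 and 8.66 and 8.70 with shGFP, a difference of 1.17 ± 0.15 (SE). TMEM65, an inner membrane protein, stood at 10.82 and 10.10 with sh52, 8.22 and 8.18 with sh50 and 9.83 and 9.32 with shGFP, a difference of 2.26 ± 0.30 (SE). TOMM5, a subunit of the outer membrane import pore, stood at 11.14 and 11.29 with sh52, 9.95 and 9.15 with sh50 and 11.06 and 11.11 with shGFP. In TOMM5 sh52 differed from the control mean by 0.13 and sh50 by -1.53.

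Enzymes that use sugars followed. TMTC3, which adds mannose to cadherins in the endoplasmic reticulum, had the largest difference of the 14, 2.50 ± 0.35 (SE). It stood at 11.49 and 10.76 with sh52, 8.98 and 8.27 with sh50 and 10.24 and 9.92 with shGFP. ADPGK, a glucokinase that uses ADP, stood at 10.24 and 9.76 with sh52, 8.10 and 7.52 with sh50 and 8.96 and 9.13 with shGFP, a difference of 2.19 ± 0.27 (SE). EXTL2, a glycosyltransferase of heparan sulfate synthesis, differed by 1.42 ± 0.20 (SE), at 8.80 and 8.66 with sh52, 7.53 and 7.08 with sh50 and 8.31 and 8.44 with shGFP. In all 3 the control arrays lay between the hairpins.

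At the cell surface, ADAM10, the protease that sheds the ectodomains of Notch and other receptors, stood at 12.31 and 12.12 with sh52, 10.50 and 10.83 with sh50 and 11.49 and 11.84 with shGFP. Its difference was 1.56 ± 0.21 (SE). PTGFRN, a tetraspanin partner, stood at 12.14 and 11.58 with sh52, 10.40 and 10.03 with sh50 and 11.72 and 11.72 with shGFP, so that sh52 lay around the controls and sh50 differed from them by -1.505. ATP2B4, a calcium pump of the plasma membrane, had the reverse order, at 13.14 and 13.29 with sh52, 11.92 and 11.22 with sh50 and 12.01 and 11.76 with shGFP. Its sh50 arrays lay on either side of shGFP 2 and its sh52 arrays lay 1.34 above the control mean. KIRREL1, an adhesion molecule of the nephrin family, differed by 1.02 and lay above the controls with both hairpins.

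Of genes of signalling and translation, EIF4EBP2, a repressor of cap-dependent translation, stood at 10.78 and 10.87 with sh52, 9.76 and 9.39 with sh50 and 10.79 and 10.86 with shGFP. The sh52 arrays and the control arrays spanned nearly the same values and both sh50 arrays lay below, a difference of 1.25 ± 0.18 (SE). RHOQ differed by 1.20 ± 0.17 (SE) and CTDSP2, a phosphatase of the polymerase II tail, by 1.33 ± 0.21 (SE). Adjusted p-values of the 14 lay between 0.493 and 0.641 (limma), and none of the differences moved by over 1.5 times without any 1 hairpin array. These genes too were picked on the same arrays, so their steadiness follows in part from the choice. Over all 28 genes, the hairpins lay on opposite sides of both controls in 18, 10 with sh52 higher and 8 with sh52 lower. Among all 292 separated genes 58 had such an order, and among the separated transcripts 8.09% had it each way. Over all transcripts 1.32% had it with sh52 higher and 1.15% with sh52 lower. That order cannot occur where the hairpins overlap, as in 66.12% of all transcripts, so the shares over all transcripts are no like base for separated genes. The 28 were picked by a p whose spread includes the shGFP arrays, so their share does not describe the separated genes as a whole.

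Of the non-coding genes, 3 each way are named. MIR21, the locus of an oncogenic microRNA abundant in glioblastoma, stood at 11.21 and 10.20 with sh52, 9.09 and 9.04 with sh50 and 9.79 and 9.49 with shGFP. Its difference was 1.64 ± 0.34 (SE; limma adjusted p = 0.661), and the controls lay between the hairpins. MIR2355 stood at 5.03 and 4.80 with sh52, 3.31 and 4.03 with sh50 and 4.92 and 5.12 with shGFP, a difference of 1.25 ± 0.27 (SE), with sh50 alone below the controls. Its sh50 mean of 3.67 lay below the filter of 3.98, so the locus passed only through the other groups and its difference is read with caution. The array reads transcript at the locus and does not measure the mature microRNA. The mature sequences of these loci, given by RefSeq on GRCh38.p14, are shown because the seed, in capitals, is the part by which each would recognise a target. They lie at chr17:59841273-59841294 on the plus strand for MIR21, and at chr2:207109999-207110020 and chr2:207110043-207110063 on the minus strand for the 3p and 5p arms of MIR2355, and the 3 seeds differ.
hsa-miR-21-5p: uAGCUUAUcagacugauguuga
hsa-miR-2355-3p: aUUGUCCUugcuguuuggagau
hsa-miR-2355-5p: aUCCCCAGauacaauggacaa

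SLC6A10P, a pseudogene of the creatine transporter that shares most of its sequence with SLC6A8 and is therefore read with caution, differed by 1.52. LINC00693 stood at 4.79 and 4.73 with sh52, 5.83 and 5.82 with sh50 and 4.90 and 4.86 with shGFP, a difference of -1.06 ± 0.14 (SE). CBX1P1, a pseudogene of a heterochromatin protein, differed by -1.16 and SNORD56B, a small nucleolar RNA, by -1.02. In LINC00693 the control arrays lay nearer to sh52, which differed from them by -0.12, than to sh50, which differed by 0.94.

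Of the 23 gene lists read, hypoxia and glycolysis had the median farthest from that of all genes. Estimates were higher with sh52 for 38 of its 42 genes tested and lower for 4, with a median of 0.77, against 47.6% with a higher estimate and a median of -0.01 over all genes. Both sh52 arrays lay above both sh50 arrays in 20 of them, against 16.1% of all genes, and below in 0, against 19.6%. There were 12 genes separated by 2-fold, all higher with sh52, and none was called by limma. Over all genes 1.05% were separated higher and 0.981% lower, which are the shares to set beside the separated counts of the lists below. The median of the list, as array value minus shGFP mean, was 1.43 on the array labelled sh52 1 and 0.38 on sh52 2, 0.21 and 0.29 on the sh50 arrays and -0.03 and 0.03 on the shGFP arrays. The list was therefore high on 1 array. Without that array its median difference was 0.16, with 32 of 42 genes at a higher estimate and 2 separated. The spike-in mean and SAT1 were highest on the same array. With the spike-in mean as a covariate, a fit chosen after seeing the data, the list's median difference was 0.37. HILPDA then differed by 1.20, SLC2A3 by 0.91 and CA12 by 1.91. The spike-in means of the sh50 arrays were nearly equal, so the covariate drew on the sh52 and shGFP arrays. The fit is therefore no separate check from leaving out the array labelled sh52 1. The part of SAT1 was not tested.

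HILPDA, a lipid droplet protein induced by low oxygen, showed this most. It stood at 12.98 and 7.42 with sh52, 7.12 and 7.07 with sh50 and 7.16 and 7.04 with shGFP. Only the array labelled sh52 1 was high, and the difference of 3.11 ± 1.66 (SE; limma adjusted p = 0.833) was 0.33 without it. SLC2A3, a glucose transporter, stood at 12.94 and 10.68 with sh52, 10.02 and 9.87 with sh50 and 10.32 and 9.40 with shGFP, a difference of 1.86 that was 0.73 without that array.

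CA12, a carbonic anhydrase of the cell surface, was separated with either sh52 array. It stood at 14.97 and 13.22 with sh52, 11.31 and 11.69 with sh50 and 11.81 and 11.38 with shGFP. The sh50 and control arrays were interleaved and both sh52 arrays lay above them, by a difference of 2.59 ± 0.57 (SE; limma adjusted p = 0.668) that was 1.72 without the array labelled sh52 1. PGAM1, the phosphoglycerate mutase of glycolysis, was the other gene separated without it, but there the sh50 arrays were the ones that departed. It stood at 12.81 and 12.41 with sh52, 11.67 and 9.997 with sh50 and 12.59 and 12.61 with shGFP, a difference of 1.77 that was 0.93, under 2-fold, without sh50 2. Its near-identical copy PGAM4 differed by 1.89, so probes may be shared and the value of either gene is uncertain.

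Transcription factors induced by low oxygen bind a short core, ACGTG or GCGTG. Promoters, taken as the 250 bases before the start of each gene in RefSeq (GRCh38.p14), were searched for it on both strands, where a match may overlap another. Of the 42 genes 37 had a promoter sequence, and 27 of these (73.0%) held at least 1 match, against 43.1% of all 27305 promoters. The 27305 include genes of any type that did not pass the filter on dim features. They are thus no like base for the list, and the share among the genes tested was not taken. Of the 12 separated genes 10 had a promoter and 7 held a match. A match is a description of the letters only. The 3 separated genes with the largest differences that held one are shown, with matches in capitals: CA12 at chr15:63381847-63382096 on the minus strand with 1 match, FAM162A, a mitochondrial protein induced by low oxygen, at chr3:122383932-122384181 on the plus strand with 4, and ANGPTL4, a secreted inhibitor of lipoprotein lipase, at chr19:8363905-8364154 on the plus strand with 1.
CA12: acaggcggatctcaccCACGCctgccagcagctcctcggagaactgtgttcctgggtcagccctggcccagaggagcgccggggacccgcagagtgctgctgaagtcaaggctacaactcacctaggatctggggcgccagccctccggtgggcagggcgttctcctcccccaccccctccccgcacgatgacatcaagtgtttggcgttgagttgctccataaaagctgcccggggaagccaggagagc
FAM162A: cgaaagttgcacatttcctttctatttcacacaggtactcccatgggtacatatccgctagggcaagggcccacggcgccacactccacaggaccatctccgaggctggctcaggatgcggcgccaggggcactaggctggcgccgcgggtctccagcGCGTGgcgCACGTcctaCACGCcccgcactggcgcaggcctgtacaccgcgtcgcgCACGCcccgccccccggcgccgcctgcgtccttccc
ANGPTL4: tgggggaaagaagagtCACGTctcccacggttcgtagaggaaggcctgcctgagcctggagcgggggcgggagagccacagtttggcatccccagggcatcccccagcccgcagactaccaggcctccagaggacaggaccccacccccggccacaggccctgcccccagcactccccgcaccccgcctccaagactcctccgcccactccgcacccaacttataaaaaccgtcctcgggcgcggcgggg

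FAM162A stood at 11.25 and 9.75 with sh52, 8.71 and 8.87 with sh50 and 7.95 and 8.61 with shGFP, and its difference of 1.71 was 0.96 without the array labelled sh52 1. ANGPTL4 stood at 11.12 and 9.29 with sh52, 8.51 and 8.78 with sh50 and 6.35 and 6.91 with shGFP, so both hairpins lay above the controls, and its difference of 1.56 was 0.65 without that array. Each had sh52 1 well above sh52 2, as in HILPDA.

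**Figure D4:**
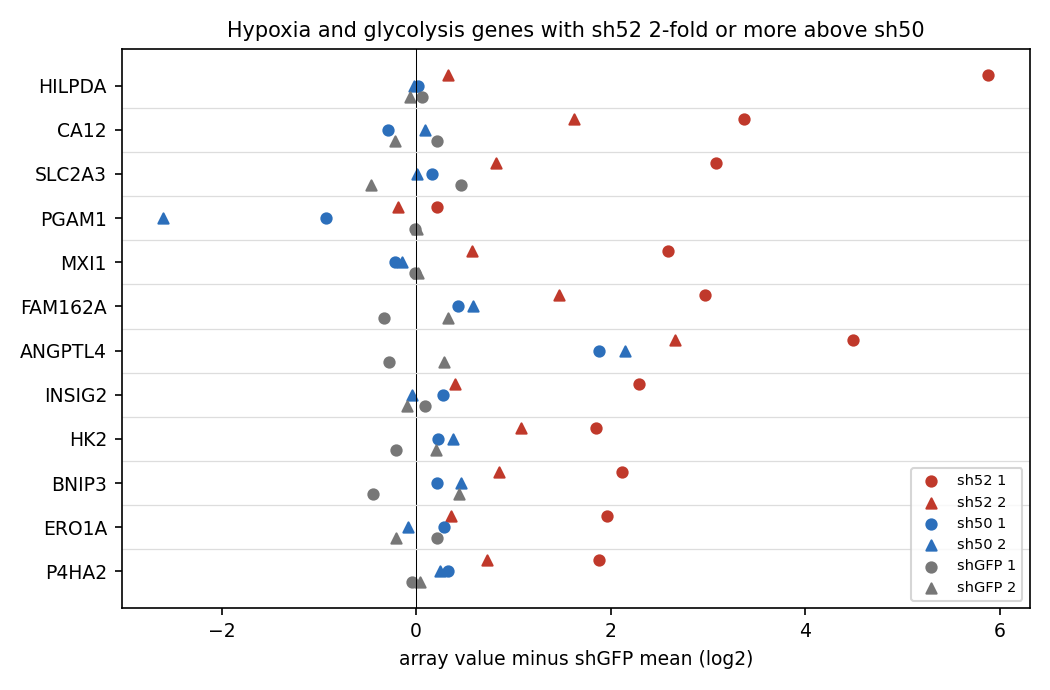
The 12 hypoxia and glycolysis genes separated by 2-fold or more, as array value minus shGFP mean in log2 units; in each row sh52 (red) is above sh50 (blue) and shGFP (grey), circles are number 1 and triangles number 2. Every red circle other than that of PGAM1 lies well to the right of its red triangle, and in PGAM1 the sh50 points lie to the left instead.

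Inflammatory genes of the NF-kB pathway had a median difference of 0.59 over 29 genes tested, 23 with a higher and 6 with a lower estimate. Of the 29 genes 3 were separated higher and 1 lower, against 1.05% and 0.981% of all genes. Their level went with the array number in all groups. The list median from the shGFP mean was 1.61 and -0.34 on the sh52 arrays, 0.73 and -0.39 on the sh50 arrays and 0.44 and -0.44 on the shGFP arrays. In each group number 1 was high and number 2 low. The median difference within number 1 was 0.88 and within number 2 was 0.00, and without the array labelled sh52 1 the median was -0.54. LIF, a cytokine of the interleukin-6 family, stood at 7.30 and 5.03 with sh52, 11.72 and 5.09 with sh50 and 11.56 and 6.09 with shGFP. The hairpins overlapped, and the array labelled sh52 1 was the only number 1 array below 11. PTX3, a secreted pattern-recognition protein, was separated, at 9.42 and 8.80 with sh52, 7.32 and 8.17 with sh50 and 6.81 and 7.13 with shGFP, a difference of 1.36 ± 0.35 (SE). MMP3, a matrix protease, differed by 2.06 and TNFAIP6, a hyaluronan-binding protein, by 1.44, and without the array labelled sh52 1 by 0.64 and 0.36.

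Extracellular matrix and adhesion genes had a median of 0.39, with 37 of 45 at a higher estimate. Of the 45 genes 3 were separated higher and 1 lower, against 1.05% and 0.981% of all genes. Their array medians were 1.21 and 0.63 with sh52, 0.63 and 0.14 with sh50 and 0.18 and -0.18 with shGFP, and without the array labelled sh52 1 the median difference was 0.14. COL5A1, a fibrillar collagen, stood at 7.76 and 6.57 with sh52, 5.96 and 5.77 with sh50 and 5.42 and 5.35 with shGFP, a difference of 1.30 that was 0.70 without that array. CCN2, a matricellular target of YAP, stood at 8.22 and 9.01 with sh52, 11.71 and 9.57 with sh50 and 10.02 and 7.74 with shGFP, a difference of -2.03 in the other direction, and -0.95 without sh50 1. MMP1, a collagenase, differed by 1.29 ± 1.54 (SE) and its groups overlapped.

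Cholesterol synthesis had a median of 0.28 over 24 genes, 17 of them with a higher estimate. Of the 24 genes 2 were separated, both higher, against 1.05% of all genes. SCD, the desaturase of fatty acids, stood at 16.18 and 15.21 with sh52, 12.72 and 14.87 with sh50 and 14.17 and 13.78 with shGFP, a difference of 1.90 that was 0.83 without sh50 1. INSIG1, which holds the sterol sensor in the endoplasmic reticulum, stood at 13.03 and 11.23 with sh52, 9.84 and 10.58 with sh50 and 11.45 and 10.49 with shGFP, a difference of 1.92 that was 1.02 without the array labelled sh52 1. HMGCS1 and MSMO1, enzymes of the pathway, differed by 1.08 and 1.12 with groups that overlapped. Without the array labelled sh52 1 they differed by 0.26 and 0.30, and within number 2 by -0.51 and -0.42. For SCD and INSIG1 the sh50 arrays lay on either side of a control array, and the list's median stayed between 0.12 and 0.42 without any 1 hairpin array. Within number 1 the list's median difference was 0.45 and within number 2 it was -0.09, so its direction rests on number 1.

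**Figure D5:**
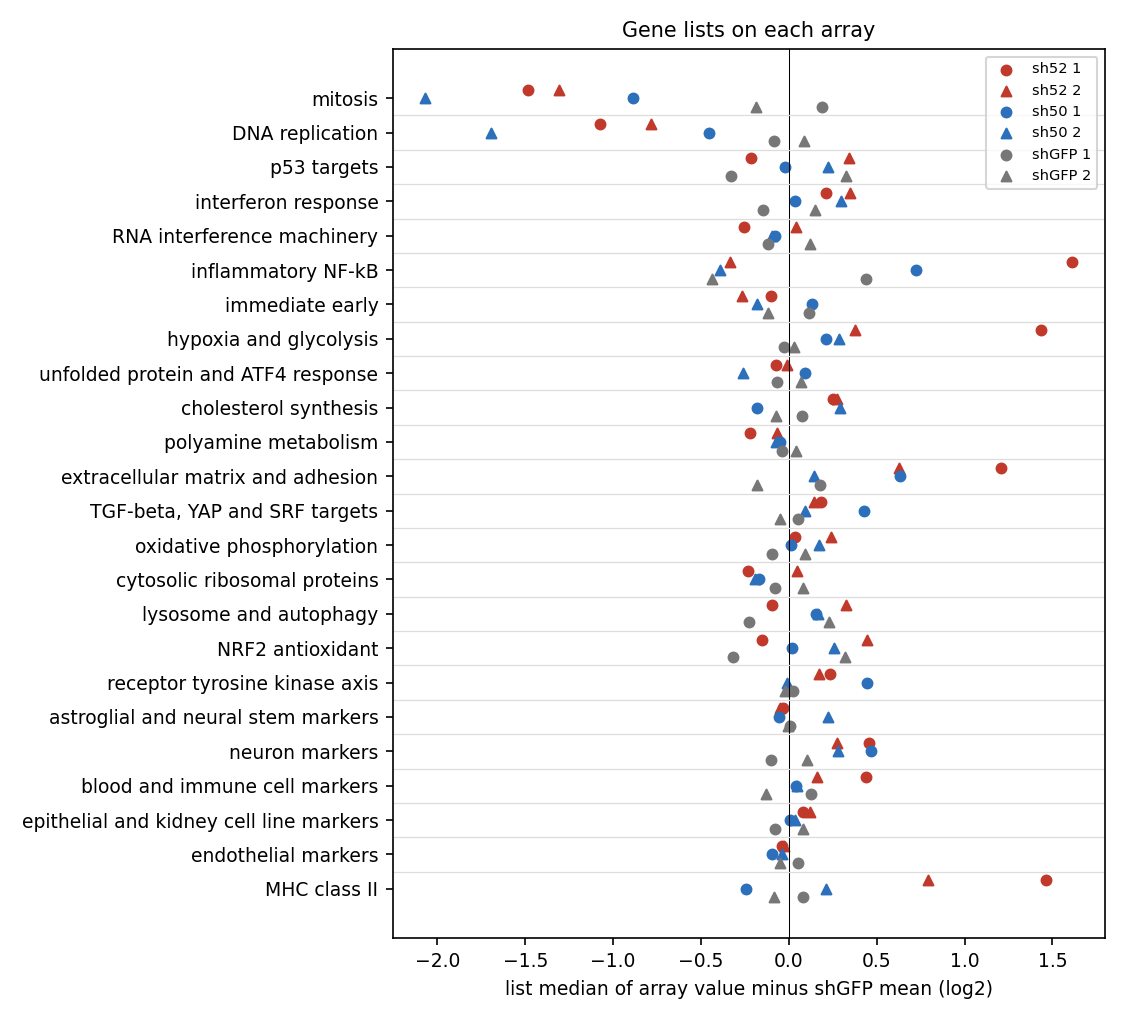
Median of each gene list on each array, as array value minus shGFP mean in log2 units; in each row sh52 (red) is above sh50 (blue) and shGFP (grey), circles are number 1 and triangles number 2. Hypoxia and glycolysis is high only on the array labelled sh52 1, inflammatory NF-kB genes are high on number 1 in each group, and the mitosis medians of the hairpins overlap at -1.49 and -1.31 for sh52 and -0.88 and -2.07 for sh50.

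Cell division genes overlapped between the hairpins. Of 59 mitosis genes 27 had a higher and 32 a lower estimate, with a median difference of -0.06, and 0 were separated. Their array medians were -1.49 and -1.31 with sh52, -0.88 and -2.07 with sh50 and 0.19 and -0.19 with shGFP. The sh52 arrays lay between the sh50 arrays, and the median difference was 0.56 without sh50 1 and -0.55 without sh50 2. CCNA2, the S phase and mitotic cyclin, stood at 12.53 and 12.66 with sh52, 12.60 and 10.86 with sh50 and 13.87 and 13.23 with shGFP, and CDCA8, of the chromosomal passenger complex, differed by -0.71 ± 0.43 (SE), or by -0.23 without sh50 1, while leaving out the array labelled sh52 1 gave -0.24. DNA replication had a median of 0.13 with 33 of 47 genes at a higher estimate, and the sh52 array medians again lay between those of sh50. The list had 45 higher estimates and a median of 0.71 without sh50 1, and 6 and -0.46 without sh50 2. Among its genes DBF4, activator of the kinase that fires origins, differed by 0.82 (0.29 without sh50 2) and RRM2, a ribonucleotide reductase subunit, by 0.73 (-0.39 without sh50 2).

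The machinery of RNA interference, through which both hairpins act, had a median of 0.00 over 15 genes, 8 higher and 7 lower. TNRC6B, the scaffold that carries silencing by AGO proteins, stood at 8.04 and 8.26 with sh52, 9.05 and 9.35 with sh50 and 8.52 and 8.87 with shGFP. It was the 1 separated member, with a difference of -1.05 ± 0.21 (SE; limma adjusted p = 0.661) and the controls between the hairpins. DICER1, which cuts hairpins, stood at 9.86 and 10.98 with sh52, 9.72 and 9.83 with sh50 and 10.07 and 10.16 with shGFP, a difference of 0.65 ± 0.36 (SE) that was 0.093 without sh52 2. Interferon response genes, which long or abundant double-stranded RNA can induce, had 25 of 32 estimates higher and a median of 0.19, and 0 were separated. IFI6, a mitochondrial interferon-induced protein, and OASL, an antiviral sensor, differed by 0.92 and 0.87, and IFI6 by 0.30 without the array labelled sh52 1. Without sh50 1 the list had 15 of 32 estimates higher and a median of -0.01.

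Polyamine metabolism, the pathway of SAT1, had a median of -0.02, with 9 of 23 genes at a higher and 14 at a lower estimate. ATP13A3, a polyamine transporter, stood at 15.26 and 14.19 with sh52, 14.12 and 12.90 with sh50 and 14.96 and 14.05 with shGFP, a difference of 1.22 that was 0.61 without sh50 2. AMD1, the decarboxylase that supplies spermidine synthesis, stood at 10.34 and 12.10 with sh52, 12.26 and 12.23 with sh50 and 11.94 and 12.87 with shGFP, a difference of -1.02 that was -0.14 without the array labelled sh52 1. These were the 2 separated members, 1 each way, against 1.05% of all genes separated higher and 0.981% lower.

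Targets of p53 had a median of -0.09 over 27 genes and held 2 genes separated each way, against 1.05% of all genes higher and 0.981% lower. TP53INP1, which promotes p53 activity, stood at 6.68 and 7.58 with sh52, 8.44 and 10.57 with sh50 and 5.98 and 8.27 with shGFP. Numbers 2 were above numbers 1 in each group, and the difference was -2.37 ± 0.98 (SE), or -1.30 without sh50 2. CCNG1, an atypical cyclin, stood at 12.66 and 13.09 with sh52, 10.87 and 11.36 with sh50 and 11.58 and 12.81 with shGFP, a difference of 1.76 ± 0.43 (SE). The list also had members separated the other way, so its direction was mixed.

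Antioxidant genes of the NRF2 pathway had a median of 0.07 over 29 genes, with 3 separated higher and 2 lower, against 1.05% and 0.981% of all genes. TXNIP, an inhibitor of thioredoxin, stood at 15.63 and 12.82 with sh52, 11.01 and 12.24 with sh50 and 11.10 and 10.71 with shGFP, a difference of 2.60 that was 1.19 without the array labelled sh52 1. SLC7A11, the cystine importer, also a member of the list of the unfolded protein and ATF4 response, stood at 6.67 and 11.38 with sh52, 11.11 and 11.53 with sh50 and 8.15 and 13.71 with shGFP, so its difference of -2.29 came from 1 array and was 0.06 without it. The median of the unfolded protein and ATF4 list was 0.04, where PDIA4, a folding enzyme, differed by 1.04, or by 0.35 without the array labelled sh52 1 and 0.37 with the spike-in covariate.

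Receptor tyrosine kinase genes had a median of 0.05. PDGFRB, a platelet-derived growth factor receptor, stood at 9.90 and 7.81 with sh52, 6.64 and 7.45 with sh50 and 6.63 and 6.21 with shGFP, and differed by 1.81, or by 0.76 without the array labelled sh52 1. EPHA2, an ephrin receptor, stood at 7.22 and 8.36 with sh52, 9.55 and 9.12 with sh50 and 9.10 and 8.55 with shGFP, a difference of -1.54 ± 0.42 (SE) that was -0.97 without the same array. Immediate early genes had a median of -0.09 over 31 genes, with 2 separated lower, against 0.981% of all genes. SPRY4, a feedback inhibitor of receptor signalling, was one of them, at 6.74 and 7.03 with sh52, 9.45 and 7.92 with sh50 and 8.61 and 7.44 with shGFP, with a difference of -1.80 that was -1.04 without sh50 1, and NR4A2, a nuclear receptor, differed by -1.71 ± 2.72 (SE) with groups that overlapped.

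Lists of basal cell functions had medians near 0. Among cytosolic ribosomal proteins the median was 0.11, with 27 of 35 genes at a higher estimate. That median was -0.05 without sh52 2, and it was -0.08 within number 1 and 0.29 within number 2. RPS23 and RPL12 differed by 0.55 and 0.52, with RPS23 at 0.22 without sh50 2. Oxidative phosphorylation had a median of 0.05 over 44 genes. Its member COX7A2, a subunit of the terminal oxidase, stood at 8.67 and 8.63 with sh52, 7.85 and 7.51 with sh50 and 8.27 and 8.46 with shGFP, a difference of 0.97, and NDUFA9 of complex I differed by 0.94. Lysosome and autophagy had a median of 0.01 over 35 genes, with the proton pump genes ATP6V1C1 and ATP6V0D1 at -0.96 and -0.75 (-0.54 and -0.15 without the array labelled sh52 1). Targets of TGF-beta, YAP and SRF had a median of -0.04 over 32 genes, where F3, the tissue factor of coagulation, differed by 1.36 ± 1.83 (SE). No gene of the ribosomal, oxidative phosphorylation or lysosome lists was separated.

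Markers of cell types gave medians of 0.07 for 12 astroglial and neural stem genes tested of 20, -0.20 for 5 neuron genes of 18, 0.18 for 6 blood and immune genes of 20, 0.05 for 8 epithelial and kidney genes of 16 and 0.09 for 4 endothelial genes of 12. ALDOC and SOX9, glial genes, differed by 1.68 and -1.0 with groups that overlapped, while leaving out the array labelled sh52 1 gave 0.39 and -0.41. SNAP25, which acts in synaptic vesicle fusion, stood at 9.78 and 9.62 with sh52, 8.82 and 9.23 with sh50 and 7.35 and 8.37 with shGFP, a difference of 0.67. SYT1 and MAP2 of neurons differed by -0.29 each and the neurofilament gene NEFM by 0.21. EPCAM and MUC1 of epithelia differed by 0.31 and 0.17, and ESAM and TEK of endothelium by 0.13 and 0.09. CD74, the invariant chain of MHC class II and the 1 separated gene of these lists, stood at 10.85 and 9.95 with sh52, 8.70 and 9.49 with sh50 and 9.46 and 8.62 with shGFP. Its difference was 1.31 ± 0.46 (SE; limma adjusted p = 0.762), or 0.85 without the array labelled sh52 1, while PTPRC, the common leukocyte marker, lay between 3.10 and 3.37 on every array, below the filter. CSF1R, a receptor of macrophages, differed by 0.39. In a bulk sample fewer cells of a type and less RNA per cell cannot be told apart.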

How the data were processed

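Total RNA of U87MG cells was hybridised to human transcriptome arrays, 2 for each of sh52, sh50 and shGFP, and groups and numbers were taken from the sample titles. The authors deposited log2 expression values made by RMA in Expression Console with a core-exon analysis, per the labels, where base 2 is assumed and any fold holds only for that base. The submitters' processing notes name Transcriptome Analysis Console, its version and the build not given in the sources used here. The median over all features lay between 3.98 and 4.12 on the arrays, and precision is limited by the number of arrays.

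Of 70523 features 67528 were transcript clusters, kept where the mean over 6 arrays was at or above their median of 3.98. The lowest mean kept and the highest left out were both 3.984. Platform annotation gave 1543 transcript clusters several symbols and left 42204 unnamed here. Symbols were updated through a RefSeq table of GRCh38.p14, through the identifier in 21497 cases, the symbol in 1974 and a former symbol in 306, while 4 stayed as given. Each gene was read by the brightest transcript cluster that carried no other symbol.

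A limma fit (version 3.58.1, R 4.3.3) estimated group means over 6 arrays (3 residual and 2.67 prior degrees of freedom), two-sided, with Benjamini-Hochberg adjustment over 33764 transcripts. The fit was tested on simulated arrays with independent noise and no effect of the replicate number. It called 7.06% of true log2 differences of 1, 56.06% of those of 2 and 0.01% of unchanged transcripts. Genes named were SAT1, the 14 protein-coding and 3 non-coding separated genes each way with the smallest p, and from each of 23 lists the 2 members with the largest difference, or 4 in the 5 lists with medians farthest from that of all transcripts. CD44, FN1, VIM and other identity markers, FAM162A, ANGPTL4, PGAM4 and the MHC class II genes were named outside this rule, the last 4 after their values were seen. Members and lists were chosen with earlier results of these data known. Of 816 list memberships 653 passed the filter, and only 4 of the 292 separated genes had a group mean under it. Lists were not tested.

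Deviations of same-numbered arrays from their group means correlated at 0.05 between sh52 and sh50, 0.34 between sh52 and shGFP and 0.39 between sh50 and shGFP, and with 2 arrays a group the numbers were not taken as pairs. Alternatives were the replicate number as a block, other filters, single-symbol features, trend and robust options, quantile normalization, centring, only 4 arrays, a 1.5-fold threshold, 1.5-fold and 4-fold separation, means over a gene's transcript clusters and each array left out in turn. The spike-in mean as a covariate was chosen after seeing the data.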

Additional observations from a re-analysis of the deposited data

Results flagged for a closer look

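In the genes below both arrays of one hairpin lay above both shGFP arrays and both arrays of the other hairpin lay below them. The difference between the effects against shGFP was not tested apart from the limma fit, in which none passed. Both effects use the same shGFP arrays. With sh52 above and sh50 below, the differences were 1.5 for CLPX, 2.19 for ADPGK, 1.17 for DBT, 2.26 for TMEM65, 1.56 for ADAM10, 2.50 for TMTC3 and 1.42 for EXTL2. They were 1.20 for RHOQ, 1.33 for CTDSP2, 1.66 for TOMM5, 0.97 for COX7A2 and 1.64 for the MIR21 locus. With sh52 below and sh50 above, they were -1.84 for COLGALT1, -1.48 for RELCH, -1.62 for CMTM4, -2.31 for TMEM30A, -1.35 for VPS4B and -1.36 for IFT56. They were -1.17 for SECISBP2L, -1.27 for STYX, -1.06 for LINC00693, -1.05 for TNRC6B and -1.54 for EPHA2. The sides were not always of like size. From the shGFP mean TOMM5 differed by 0.13 with sh52 and -1.53 with sh50, and LINC00693 by -0.12 and 0.94. In both, most of the difference lay with sh50. Over all 33764 transcripts, 447 (1.32%) had the first order and 388 (1.15%) the second. Those shares include the 66.12% of transcripts in which the hairpins overlap and neither order can occur.

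The spike-in controls are outside the transcript clusters compared. Their mean on the array labelled sh52 1 was 9.83, above the shGFP arrays at 9.25 and 8.88.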

How the results depend on the processing

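The limma count of called transcripts was 0 under every alternative except that it ranged from 0 to 1 when single arrays were left out. The 1 was HILPDA without sh52 2 (difference 5.89, adjusted p = 0.0348), where the array labelled sh52 1 stood alone for its group and was assumed to vary like the other groups. The counts at an unadjusted p under 0.05 ran from 1367 without the array labelled sh52 1 to 4483 without sh52 2, and were 254 with a 1.5-fold minimum, 1168 with a filter at the 75th percentile, 1193 with single-symbol features and 4236 without a filter. With the replicate number as a block 0 were called and 2874 had an unadjusted p under 0.05, and the block changed no call. The 643 separated transcripts became 311 among single-symbol features, 2321 at 1.5-fold and 42 at 4-fold, which follow from fewer features and other thresholds. They ranged from 605 (without the array labelled sh52 1) to 2140 (without sh52 2) as single arrays were left out, where overlap with 1 array in a group is less likely. SAT1 differed by -0.63 with the spike-in covariate and by -1.01 to 1.98 as single arrays were left out. Of 97 other named genes, 10 changed sign under some alternative, in 17 of 1548 values, and the cause was not tested. With the spike-in covariate SLC7A11 stood at 0.46, MMP1 at -0.14, F3 at -0.59, MUC1 at -0.020 and TEK at -0.063. As single arrays were left out, signs turned in CCNA2 (-0.0034 to 1.74), RRM2 (-0.39 to 1.85), LIF (-5.55 to 1.08), NR4A2 (-4.11 to 0.68), SLC7A11 (-4.64 to 0.058), MMP1 (-0.54 to 3.12), F3 (-0.77 to 3.48), MAP2 (-0.74 to 0.16), MUC1 (-0.050 to 0.39) and TEK (-0.27 to 0.45). Of 24 list medians, 16 moved by more than the spread between replicates under some alternative (34 of 359 values) and 18 changed sign, among them inflammatory NF-kB genes at -0.38 with the spike-in covariate. No alternative turned the sign of the hypoxia, extracellular matrix, cholesterol or MHC class II medians, though within number 2 alone the cholesterol median was -0.09. A filter at the 75th percentile left no endothelial gene. With 2 arrays a group, small differences are not detectable, and on simulated arrays 7.06% of true log2 differences of 1 were called.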

Other observations

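Genes of MHC class II, which present antigen and are known to be expressed by some glioma cells, lay higher with sh52. The group was chosen after values were seen, so its counts are a description and no test was made. Of 13 genes 11 passed the filter, all 11 had both sh52 arrays above both sh50 arrays (16.1% of all genes did), and 6 were separated by 2-fold (1.05% of all genes), with a median difference of 1.08 against -0.01 over all genes. HLA-DRA, the alpha chain of HLA-DR, stood at 14.16 and 13.27 with sh52, 11.34 and 12.22 with sh50 and 12.24 and 11.78 with shGFP. HLA-DQA1 stood at 5.89 and 5.49 with sh52, 4.49 and 4.74 with sh50 and 4.78 and 4.62 with shGFP. HLA-DMA, which loads peptides, differed by 1.12, HLA-DPA1 by 1.13 and HLA-DRB1 by 1.09. HLA-DR beta genes are alike in sequence, so their probes may be shared. CIITA, the master activator of the class, stood at 5.97 and 6.30 with sh52, 5.73 and 5.59 with sh50 and 6.32 and 5.93 with shGFP, and differed by 0.48. The array medians of the group from the shGFP mean were 1.46 and 0.79 with sh52, -0.25 and 0.21 with sh50 and 0.08 and -0.08 with shGFP. Both sh52 medians lay above those of the other 4 arrays, and the median difference was 0.68 without the array labelled sh52 1, with 1 gene separated. The leukocyte gene PTPRC lay below the filter on average.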
